A study of Mus musculus with 12 samples.

Results

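RNA sequencing of 12 subcutaneous mouse tumors was examined for 40 genes of skeletal muscle contraction and energy supply. The genes were taken from a list of muscle symbols, and all 40 were found among the 34678 gene symbols of the tables. The list was drawn up with the FPKM of these tumors known (fragments mapped to a gene, scaled by gene length and library depth), so the levels themselves are given as a description. By role, the list held 14 isoforms typical of fast fibers, 9 typical of slow fibers, 2 developmental myosins, 7 structural genes, 5 metabolic genes and 3 regulators of muscle stem cells and myoblasts.

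Every tumor grew from LLC1-shLkb1 cells, a Lewis lung carcinoma line in which a short hairpin RNA lowers Lkb1 (Stk11), placed under the skin of C57BL/6 mice of both sexes, 5 to 8 weeks old. The 4 arms of 3 tumors were vehicle, palbociclib, anti-PD-1 and the combination of both drugs. The paper gives its sample sizes as biological replicates, and each tumor was taken to come from a different mouse. For lymphocyte isolation and tissue staining the methods give collection 2 weeks after treatment, and they state no time for sequencing. Palbociclib, an inhibitor of the cell-cycle kinases CDK4 and CDK6, was given by mouth on 3 days of each week. The anti-PD-1 antibody, injected into the abdomen 3 times a week, blocks an inhibitory receptor of T cells, and vehicle mice received a control IgG. No arm without the knockdown was analysed here, so a muscle level in tumors with intact Lkb1 cannot be given. The tumors are bulk tissue from a transplanted line, and the labels do not say how much surrounding tissue was taken along.

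Depth was estimated at 14900000 to 20300000 fragments per tumor, and FPKM summed to between 261027 and 280080. It was read from the step that 1 fragment adds to the FPKM of low genes, and its ratios between tumors are more certain than its absolute size. Replicate numbers are names only and do not pair tumors across arms.

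Skeletal muscle fibers shorten when myosin heavy chains pull on actin filaments. Calcium from the sarcoplasmic reticulum allows this by binding troponin C, and the calcium pumps of the Atp2a family then return it to the store. Fast and slow fibers use different genes for the same part of this machine, so the isoforms present tell which kind of fiber RNA comes from. Adult fast fibers of the mouse carry Myh4 (type IIb), Myh1 (IIx) or Myh2 (IIa), slow fibers carry Myh7, and Myh3 and Myh8 mark embryonic and newborn or regenerating fibers.

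The level of the muscle genes differed far more between single tumors than between arms. Acta1, the actin of adult skeletal muscle thin filaments (chr8:123891769-123894751, GRCm38, GENCODE M21), read 24.9, 0.136 and 0.241 FPKM in vehicle replicates 1, 2 and 3. With palbociclib it read 0.430, 3.61 and 90.7 FPKM. With anti-PD-1 the values were 5.87, 0.128 and 0.151 FPKM, and with the combination they were 0 (listed at 0), 83.2 and 2.80 FPKM. Palbociclib replicate 3, combination replicate 2 and vehicle replicate 1 thus stood highest, anti-PD-1 replicate 1, palbociclib replicate 2 and combination replicate 3 were intermediate, and the other 6 tumors were below 0.5 FPKM. All 4 arms overlapped. In bulk tissue, fewer cells of a type and less RNA per cell cannot be told apart.

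**Figure D1:**
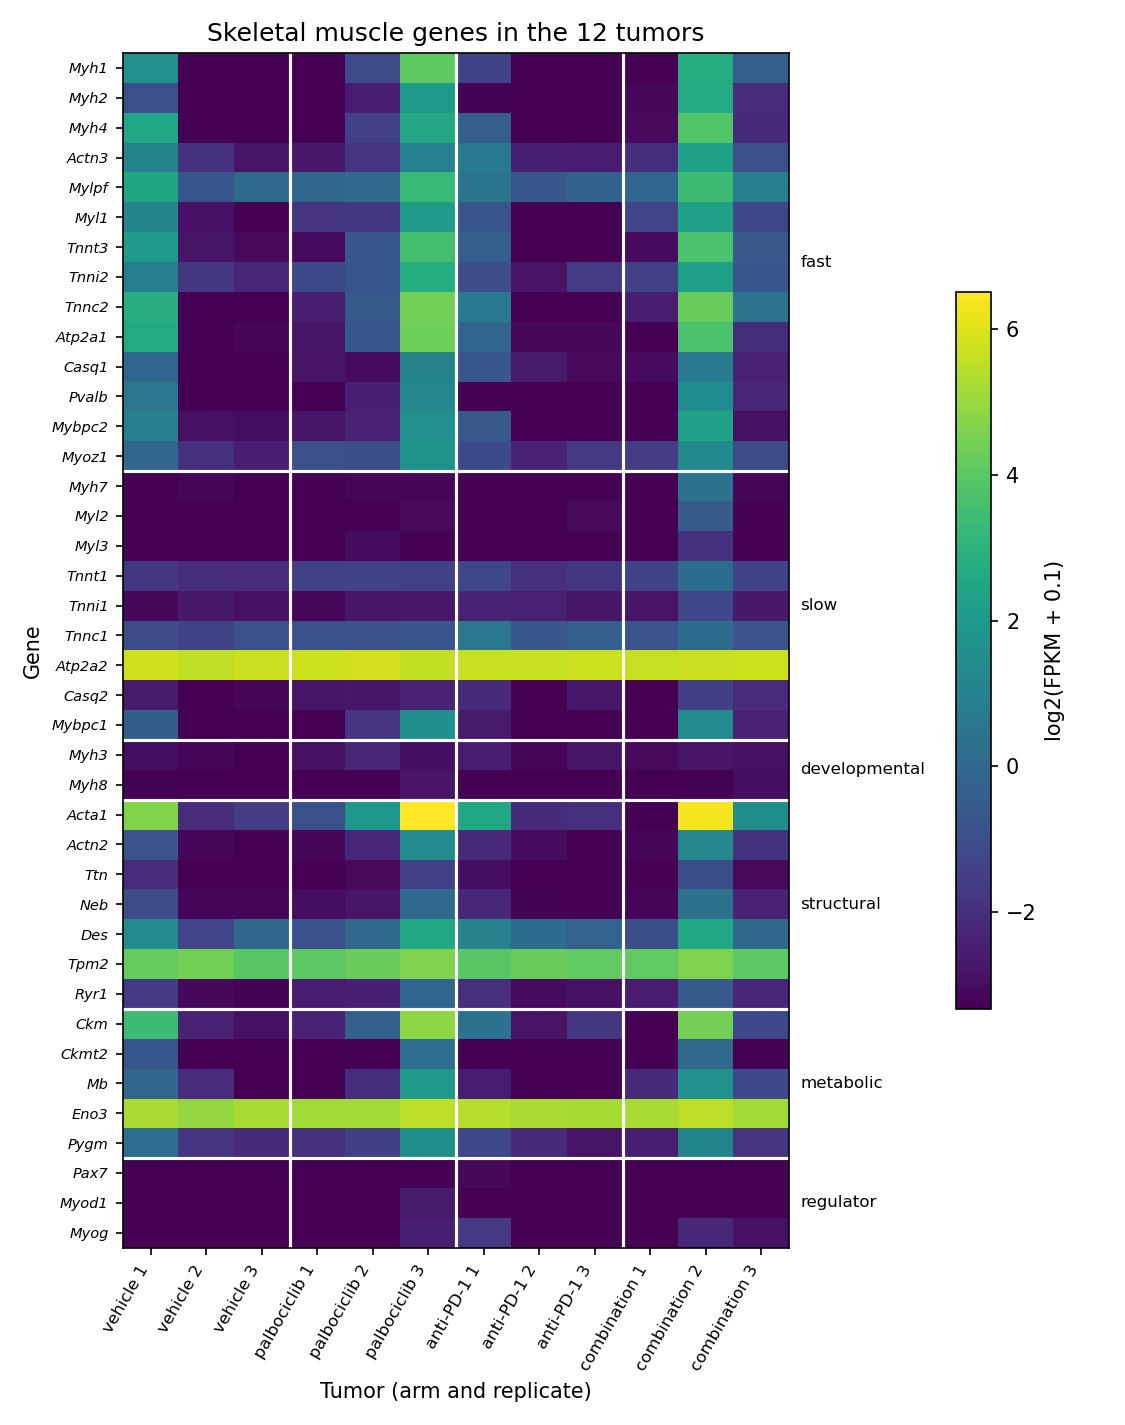
Level of the 40 muscle genes (rows, grouped by role) in each tumor (columns, grouped by arm), as log2(FPKM + 0.1). The fast, structural and metabolic rows are brightest in vehicle 1, palbociclib 3 and combination 2, whereas Atp2a2, Eno3 and Tpm2 are bright in all 12 tumors.

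Some of the listed genes were high in every tumor. Atp2a2, a calcium pump that slow fibers share with many other cell types, lay between 46.7 and 56.3 FPKM. Eno3, the muscle-type enolase of glycolysis, lay between 30.7 and 46.1 FPKM, and Tpm2, a tropomyosin of slow fibers and smooth muscle, between 15.2 and 24.4 FPKM. Together these 3 genes summed to 98.6 to 122.6 FPKM, against 2.60 to 254.9 FPKM for the other 37. Eno3 and Tpm2 nevertheless had their highest values in palbociclib replicate 3 (46.1 and 24.4 FPKM) and combination replicate 2 (45.6 and 24.0 FPKM).

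The 37 genes summed to 86.4, 2.60 and 3.16 FPKM in vehicle replicates 1, 2 and 3 and to 4.23, 12.04 and 254.9 FPKM with palbociclib. They summed to 21.4, 3.01 and 3.50 FPKM with anti-PD-1 and to 3.55, 237.3 and 12.9 FPKM with the combination. These sums rest on an estimated 3902 fragments in vehicle replicate 1, 11720 in palbociclib replicate 3 and 12122 in combination replicate 2, and on 114 fragments in vehicle replicate 2, the lowest tumor. Single muscle genes in the low tumors therefore rest on a handful of fragments each. As a share of all FPKM, the 40 genes took 0.0510% ± 0.0199 in the vehicle arm, 0.0741% ± 0.0515 after palbociclib, 0.0431% ± 0.00372 after anti-PD-1 and 0.0703% ± 0.0509 after the combination (SD, n = 3 each). Without Atp2a2, Eno3 and Tpm2 the shares were 0.0115% ± 0.0180, 0.0324% ± 0.0508, 0.00341% ± 0.00382 and 0.0303% ± 0.0474, so the SD exceeded the mean in each arm.

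**Figure D2:**
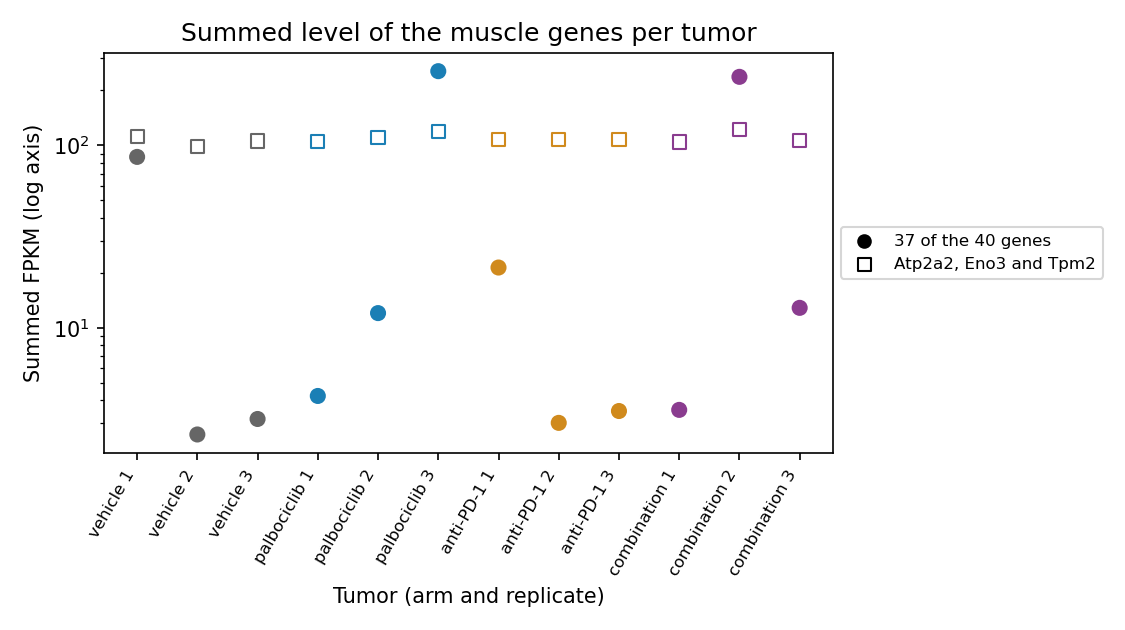
Summed FPKM (log axis) of 37 muscle genes (filled circles) and of Atp2a2, Eno3 and Tpm2 (open squares), 1 point of each kind per tumor, colored by arm. The circles span 2.60 to 254.9 FPKM while the squares stay between 98.6 and 122.6 FPKM.

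Of the 40 genes, 18 were highest in palbociclib replicate 3 and 17 in combination replicate 2. For 25 of them, Acta1 itself included, the 3 highest tumors were those of Acta1, namely vehicle replicate 1, palbociclib replicate 3 and combination replicate 2. Over the whole table this held for 215 of the 15350 genes with a mean of at least 0.1 FPKM (1.40%), the muscle genes included. Above the same cut it held for 24 of 30 muscle genes. The 25 comprised all 14 fast isoforms, 6 of 7 structural genes, 4 of 5 metabolic genes and 1 of 9 slow isoforms (Mybpc1), and none of the developmental myosins or regulators. The level of the muscle genes was part of how they were chosen, so these counts describe the list and are no test of it.

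The myosin heavy chains set fiber type most directly. Myh4 read 5.80 FPKM in vehicle replicate 1, 6.04 in palbociclib replicate 3 and 14.2 in combination replicate 2, 0.695 in anti-PD-1 replicate 1, and at most 0.270 in the other 8 tumors, of which 5 were at 0. Myh1 read 3.01 FPKM in vehicle replicate 1, 16.9 in palbociclib replicate 3, 6.66 in combination replicate 2 and at most 0.686 elsewhere. Myh2 read 0.434, 3.95 and 6.31 FPKM in the same 3 tumors and at most 0.138 elsewhere. The order of the fast myosins thus differed between tumors, with Myh4 first in vehicle replicate 1 and combination replicate 2 and Myh1 first in palbociclib replicate 3.

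Expressed as percent of the summed FPKM of the 6 myosin heavy chains, vehicle replicate 1 held 62.6% Myh4, 32.4% Myh1 and 4.68% Myh2. Palbociclib replicate 3 held 22.4% Myh4, 62.6% Myh1 and 14.6% Myh2. Combination replicate 2 held 50.1% Myh4, 23.4% Myh1, 22.2% Myh2 and 4.11% Myh7. Counted in fragments, Myh4 made up 62.3% of 932 in vehicle replicate 1 (exact 95% binomial interval 59.1% to 65.5%), 22.1% of 2933 in palbociclib replicate 3 (20.6% to 23.6%) and 48.9% of 3230 in combination replicate 2 (47.2% to 50.7%). The 3 intervals do not overlap. They cover counting error only and compare single tumors, not treatments.

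The tumors with intermediate levels showed the same spread with fewer fragments. Myh4 led in anti-PD-1 replicate 1 with 64.5% (133 myosin fragments), whereas Myh1 led in combination replicate 3 with 66.8% (112 fragments) and in palbociclib replicate 2 with 46.2% (82 fragments). The other 6 tumors had at most 6 myosin fragments each, too few for a composition. Together Myh1, Myh2 and Myh4 took 99.6% of the myosin FPKM in vehicle replicate 1, 99.7% in palbociclib replicate 3, 95.7% in combination replicate 2, 93.4% in anti-PD-1 replicate 1, 92.3% in combination replicate 3 and 86.5% in palbociclib replicate 2. Transcripts of these genes are partly alike, which limits how well fragments can be assigned. Of all 100-base stretches of the transcript, 3.85% for Myh4, 9.46% for Myh1 and 9.17% for Myh2 also occur in another of the 6 myosins, and 0 for Myh7.

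**Figure D3:**
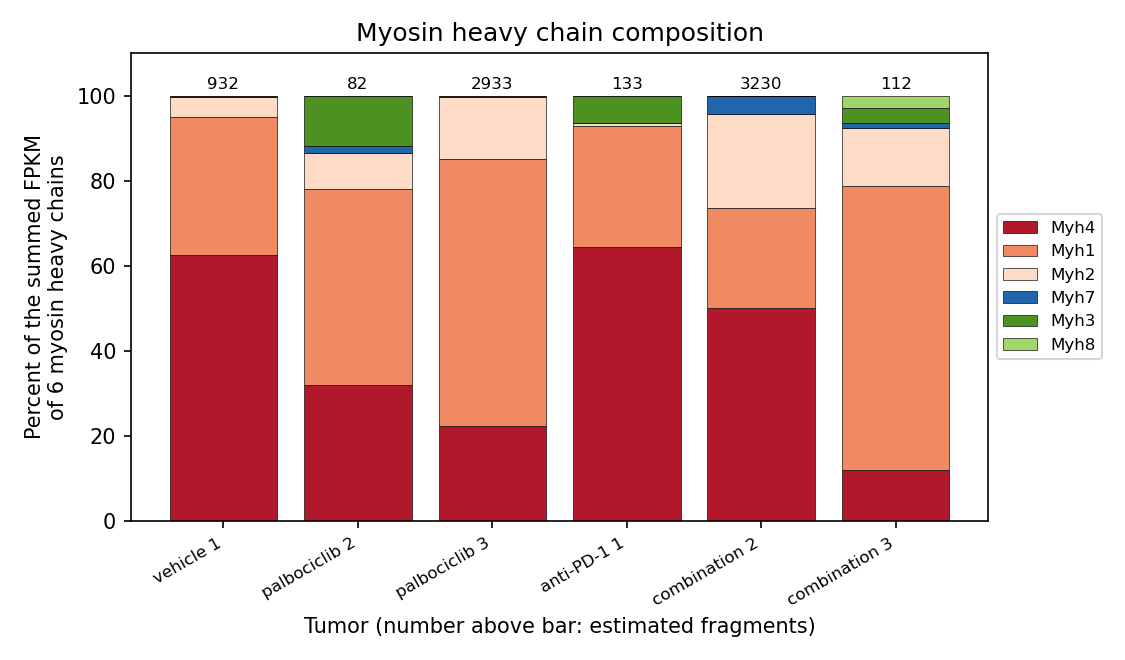
Percent of the summed FPKM of 6 myosin heavy chains taken by each gene (stacked colors) in the 6 tumors with at least 82 estimated myosin fragments, whose number stands above each bar. Myh4 is the largest block in vehicle 1, anti-PD-1 1 and combination 2, Myh1 in palbociclib 2, palbociclib 3 and combination 3, and a clear Myh7 block (4.11%) appears in combination 2.

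The 3 fast myosin genes lie side by side on chromosome 11, and Myh7 lies on chromosome 14. Their upstream sequences are shown as a description, and a link between sequence and level was not tested. From RefSeq (GRCm38.p6), each stretch covers bases 250 to 51 before the RefSeq start of the gene, read 5′ to 3′ on its strand. Capitals mark the run of 20 bases shared by the 3 fast genes. For Myh4 and Myh1 the RefSeq start differs from the GENCODE M21 start (67238029 and 67200052 on chromosome 11). The windows are chr11:67237562-67237761 (plus strand) for Myh4, chr11:67199852-67200051 (plus strand) for Myh1, chr11:67170777-67170976 (plus strand) for Myh2 and chr14:54994677-54994876 (minus strand) for Myh7.
Myh4: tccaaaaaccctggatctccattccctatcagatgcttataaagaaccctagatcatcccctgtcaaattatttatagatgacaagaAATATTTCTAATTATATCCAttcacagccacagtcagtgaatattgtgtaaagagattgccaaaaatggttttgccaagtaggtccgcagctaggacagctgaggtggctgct
Myh1: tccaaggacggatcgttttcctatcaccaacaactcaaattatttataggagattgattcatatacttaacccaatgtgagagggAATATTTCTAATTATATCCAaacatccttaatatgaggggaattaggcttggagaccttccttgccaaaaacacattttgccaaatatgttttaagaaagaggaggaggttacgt
Myh2: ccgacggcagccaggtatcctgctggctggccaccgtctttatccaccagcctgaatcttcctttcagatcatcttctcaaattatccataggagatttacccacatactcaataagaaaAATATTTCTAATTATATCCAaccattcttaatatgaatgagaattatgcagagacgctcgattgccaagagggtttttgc
Myh7: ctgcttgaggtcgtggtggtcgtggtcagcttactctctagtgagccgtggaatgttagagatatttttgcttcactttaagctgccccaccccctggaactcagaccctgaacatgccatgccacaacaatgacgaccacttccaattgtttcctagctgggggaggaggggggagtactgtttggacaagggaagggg
The run in capitals was found by comparing the windows with each other. Searched on both strands over the full 250 bases, it occurs in 3 of 27025 mouse promoters (0.011%), those of Myh1, Myh2 and Myh4. The longest stretch that Myh7 shares with any of them is 9 bases. A promoter was listed for 33 of the 40 genes. The E-box CAGCTG, a form of the motif bound by myogenic factors, occurs in 13 of these 33 (39.4%), among them Acta1, Ckm, Des, Myh4 and Mylpf, against 12.8% of all promoters. The letters TATAAA occur in 7 of the 33 (21.2%), among them Acta1, Myh1 and Myh4, against 13.0% of all. These matches describe the sequence and show neither binding nor a cause.

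The other fast isoforms followed the fast myosins. Tnnc2, the calcium-binding troponin of fast fibers, read 7.02, 0 and 0 FPKM with vehicle and 0.0771, 0.588 and 21.4 FPKM with palbociclib. It read 1.502, 0 and 0 FPKM with anti-PD-1 and 0.0780, 18.5 and 1.23 FPKM with the combination, so its 3 highest tumors were those of Acta1, in the same order. Atp2a1, the calcium pump of fast fibers, read 6.32 FPKM in vehicle replicate 1, 20.2 in palbociclib replicate 3 and 13.1 in combination replicate 2, and at most 0.7999 elsewhere. Tnnt3, which ties troponin to tropomyosin in fast fibers, read 4.19, 12.1 and 13.2 FPKM in the same tumors and at most 0.666 elsewhere. Mylpf and Myl1, light chains of fast myosin, reached 10.5 and 4.89 FPKM in combination replicate 2, and Mylpf did not fall below 0.516 FPKM in any tumor. The remaining fast genes, Actn3 and Myoz1 of the Z-disc, Tnni2 of the troponin complex, Casq1 of the calcium store, the calcium buffer Pvalb and the myosin-binding Mybpc2, peaked between 2.01 and 6.72 FPKM. Pvalb, typical of the fastest fibers, was listed at 0 in 7 of 12 tumors.

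Slow-fiber genes were low and were seen chiefly in combination replicate 2. Myh7, the slow myosin, read 1.17 FPKM there, an estimated 97 fragments or 3.00% of the myosin fragments (exact 95% interval 2.44% to 3.65%). It had at most 1 fragment in each of the other 11 tumors, including palbociclib replicate 3, where 1 of 2933 myosin fragments was Myh7 (0.0341%, interval 8.63e-04% to 0.190%). In vehicle replicate 1 it had 0 of 932 fragments, which allows a share of up to 0.322%. The slow light chains Myl2 and Myl3 likewise peaked in combination replicate 2, at 0.611 and 0.173 FPKM, and did not exceed 0.0249 FPKM in any other tumor. Tnni1, the slow inhibitory troponin, reached 0.338 FPKM there against at most 0.0969 elsewhere, and Casq2, the slow and cardiac calcium store protein, 0.259 FPKM against at most 0.137.

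Not all slow genes shared this pattern. Mybpc1, a myosin-binding protein of slow fibers that fast fibers also carry, read 0.646 FPKM in vehicle replicate 1, 2.97 in palbociclib replicate 3 and 2.55 in combination replicate 2, as the fast genes did. Tnnc1, the slow and cardiac troponin C, was instead highest in anti-PD-1 replicate 1 (1.40 FPKM) and read 1.01 FPKM in combination replicate 2 and 0.304 to 0.686 FPKM in the rest. Tnnt1 read 1.02 FPKM in combination replicate 2 and 0.139 to 0.340 FPKM in the other tumors. Both were above 0 in all 12 tumors, so a low level was present also where the fast myosins were at 0. The same held for the fast genes Actn3, Mylpf, Tnni2 and Myoz1.

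For the troponins, calsequestrin and the myosin light chains, the fast isoform made up most of the FPKM of its fast and slow pair in vehicle replicate 1, palbociclib replicate 3 and combination replicate 2. For troponin I (Tnni2 against Tnni1) the fast share was 99.2% in vehicle replicate 1, 99.2% in palbociclib replicate 3 and 93.3% in combination replicate 2. For the regulatory light chain (Mylpf against Myl2) it was 100%, 99.8% and 94.5%, and for calsequestrin (Casq1 against Casq2) 92.8%, 95.7% and 85.3%. Troponin T (Tnnt3 against Tnnt1) gave 95.4%, 97.8% and 92.8%, and troponin C (Tnnc2 against Tnnc1) 94.8%, 97.6% and 94.8%. Among these tumors the share of the fast isoform was lowest in combination replicate 2 for troponin I, troponin T, calsequestrin and the light chains, the tumor with Myh7. By fragments, the fast share of troponin T had exact 95% intervals of 95.4% to 98.4% in palbociclib replicate 3 and 88.5% to 93.0% in combination replicate 2, which do not overlap, and that of the regulatory light chain 98.1% to 99.99% and 87.3% to 93.6%. Vehicle replicate 1 overlapped combination replicate 2 for troponin T (89.8% to 97.1%), troponin I, calsequestrin and Myl1 against Myl3, but not for the regulatory light chain (97.6% to 100%). For calsequestrin and for Myl1 against Myl3, palbociclib replicate 3 overlapped combination replicate 2 too. The lowest place of combination replicate 2 is therefore not resolved for every pair. For Mybpc2 against Mybpc1 the shares were 73.8%, 50.4% and 65.4%, and the pump Atp2a1 took 10.3%, 29.4% and 19.8% against the broadly expressed Atp2a2.

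**Figure D4:**
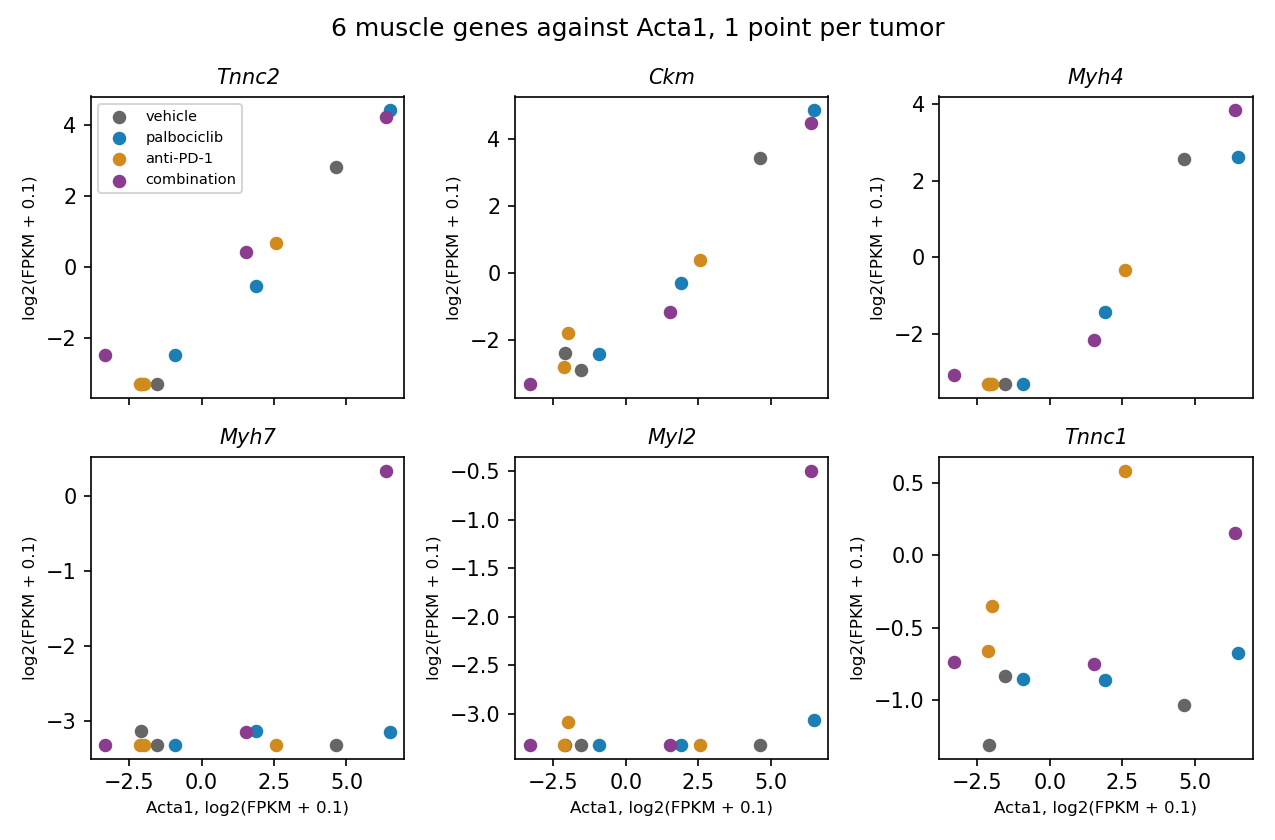
Level of 6 muscle genes against Acta1, both as log2(FPKM + 0.1), with 1 point per tumor colored by arm and a separate vertical scale for each gene. Tnnc2, Ckm and Myh4 climb with Acta1, Myh7 and Myl2 stand above the floor in combination 2, and Tnnc1 is highest in anti-PD-1 1.

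The developmental myosins stayed near 0. Myh3, the embryonic form, did not exceed 0.101 FPKM (palbociclib replicate 2, an estimated 10 fragments), and Myh8, the perinatal form, did not exceed 0.0428 FPKM (palbociclib replicate 3, 9 fragments). In palbociclib replicate 3 Myh3 and Myh8 took 0.101% and 0.159% of the myosin FPKM, and in combination replicate 2 they took 0.154% and 0.0161%. Where the myosin fragments were fewer the Myh3 share was larger, at 11.9% in palbociclib replicate 2 and 6.56% in anti-PD-1 replicate 1, from 10 and 9 fragments. Unlike the adult fast myosins, Myh3 was above 0 in 11 of 12 tumors.

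Regulators of muscle precursors were barely detected. Pax7, the transcription factor of satellite cells, had an estimated 2 fragments in anti-PD-1 replicate 1 and was listed at 0 in the other 11 tumors. Myod1, which commits cells to the muscle lineage, had 2 fragments in palbociclib replicate 3 and was at 0 elsewhere. Myog, which drives the differentiation of myoblasts, had 2 fragments in palbociclib replicate 3, 6 in anti-PD-1 replicate 1, 3 in combination replicate 2 and 1 in combination replicate 3. At this depth the levels of these genes could not be compared between tumors. Of a further list of satellite cell and myoblast genes, Myf5 and Megf10 were listed at 0 in every tumor, and Myf6, a factor of mature fibers, reached 0.339 FPKM in palbociclib replicate 3 and 0.374 in combination replicate 2. Pax3 (1.93 to 3.41 FPKM) and Ncam1 (2.27 to 7.17 FPKM) were present in all tumors, including those with the lowest Acta1.

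Among the structural genes, Des, the desmin filament that links Z-discs, read 2.61 FPKM in vehicle replicate 1, 5.62 in palbociclib replicate 3 and 5.80 in combination replicate 2, against 0.312 to 2.002 FPKM in the other tumors. Actn2, the alpha-actinin of all striated muscle, read 0.471, 2.57 and 2.38 FPKM in these tumors and at most 0.172 elsewhere. Neb and Ttn, the giant rulers of the thin and thick filaments, reached 1.17 and 0.415 FPKM in combination replicate 2. Ryr1, the calcium release channel, reached 0.789 FPKM in palbociclib replicate 3. Both giant genes thus peaked in combination replicate 2 and Acta1, Actn2 and Ryr1 in palbociclib replicate 3.

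The metabolic genes were all highest in palbociclib replicate 3. Ckm, the creatine kinase that buffers ATP in the fiber, read 10.7, 0.0917 and 0.0349 FPKM with vehicle and 0.0872, 0.713 and 28.7 FPKM with palbociclib. It read 1.22, 0.0433 and 0.191 FPKM with anti-PD-1 and 0, 21.9 and 0.349 FPKM with the combination. Ckmt2, the mitochondrial creatine kinase, was above 0 in 3 tumors, at 0.521 FPKM in vehicle replicate 1, 1.10 in palbociclib replicate 3 and 0.941 in combination replicate 2. Mb, the oxygen store myoglobin, read 0.869, 3.94 and 3.06 FPKM in these tumors, and Pygm, which breaks down glycogen, 1.07, 2.82 and 2.08 FPKM. Of their counterparts in other cells, Ckb lay at 18.3 to 43.4 FPKM, Eno1 at 116 to 214 FPKM, Pygb at 23.7 to 35.2 FPKM and Pygl at 1.16 to 9.20 FPKM.

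Set against Acta1 within a tumor, several genes kept similar proportions in the tumors with the highest levels. Tnnc2 stood at 0.282, 0.235 and 0.222 FPKM per FPKM of Acta1 in vehicle replicate 1, palbociclib replicate 3 and combination replicate 2, and Tnnt3 at 0.168, 0.133 and 0.159. Ckm stood at 0.429, 0.316 and 0.263. The ratio of Myh4 differed more, at 0.233, 0.0666 and 0.171, and that of Myh1 stood at 0.121, 0.186 and 0.0800. Across the 12 tumors, the Pearson correlation of each gene with the sum of the others among the 37, on the log2 scale, was 0.92 to 0.99 for the 14 fast genes, 0.04 for Atp2a2, 0.80 for Eno3, 0.61 for Tpm2, 0.34 for Tnnc1 and 0.29 for Myh3. The points share their libraries, and the correlations are a description.

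A further list held 37 other genes linked to muscle, among them sarcomere, calcium-handling and metabolic genes. In 21 of these the 3 highest tumors were those of Acta1. The same held for 215 of the 15350 genes with a mean of at least 0.1 FPKM (1.40%), a cut not applied to this list. The list too was chosen with earlier results of these data known, so the count is a description. Tcap, the cap of titin at the Z-disc, read 2.04 FPKM in vehicle replicate 1, 8.98 in palbociclib replicate 3 and 5.47 in combination replicate 2, and Pgam2, a glycolytic enzyme of muscle, 1.46, 3.45 and 1.80 FPKM. Xirp1 and Xirp2, actin-binding proteins of the muscle-tendon junction and intercalated disc, stood out in combination replicate 2, at 1.09 and 2.94 FPKM against 0.393 and 0.672 in palbociclib replicate 3. Sln, a small inhibitor of the calcium pump, read 1.003 FPKM in vehicle replicate 1 and 1.29 in palbociclib replicate 3 and was listed at 0 in combination replicate 2.

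Among 11173 genes outside the list with a mean of at least 1 FPKM, the profile most like the summed 40 genes over the 12 tumors was that of Tcap (Pearson r = 0.96). Next came Mrfap1 (0.87), then Cox6a2, Sec61b and Jund (each 0.85), Plekhj1 and Rps27l (0.84), and Eif2d, Abhd17a and Anapc13 (0.83). In most tumors that sum is mainly Atp2a2, Eno3 and Tpm2. Against the sum of the other 37 genes the values were 0.95 for Tcap, 0.87 for Jund, 0.86 for Mrfap1 and 0.78 for Cox6a2. Tcap and the muscle cytochrome oxidase subunit Cox6a2 are muscle genes. The others are expressed broadly and spanned narrow ranges, such as 113 to 143 FPKM for Mrfap1.

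The summed levels of adipocyte and keratinocyte genes were highest in other tumors than those of the muscle genes. A list of 10 adipocyte genes summed to 1001 FPKM in combination replicate 1 and 411 FPKM in palbociclib replicate 1, which had 0 and 0.430 FPKM of Acta1. It summed to 39.5 FPKM in palbociclib replicate 3, 18.5 in combination replicate 2 and 18.2 in palbociclib replicate 2, and to 1.63 to 5.62 FPKM in the other 7 tumors. A list of 10 keratinocyte genes summed to 398.9 FPKM in palbociclib replicate 2 and at most 2.17 FPKM elsewhere. Smooth muscle genes summed to 26.0 to 45.5 FPKM, highest in vehicle replicate 1, where Acta2 (16.7 FPKM) and Tagln (8.67 FPKM) also peaked, and to 27.4 and 29.5 FPKM in palbociclib replicate 3 and combination replicate 2. Cardiac genes summed to 1.68 to 4.07 FPKM, and Nppa and Myl7 were listed at 0 in every tumor. Leukocyte genes (5 in the list) summed to 41.7 to 133.7 FPKM. The part of these tissues in the muscle levels was not tested.

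**Figure D5:**
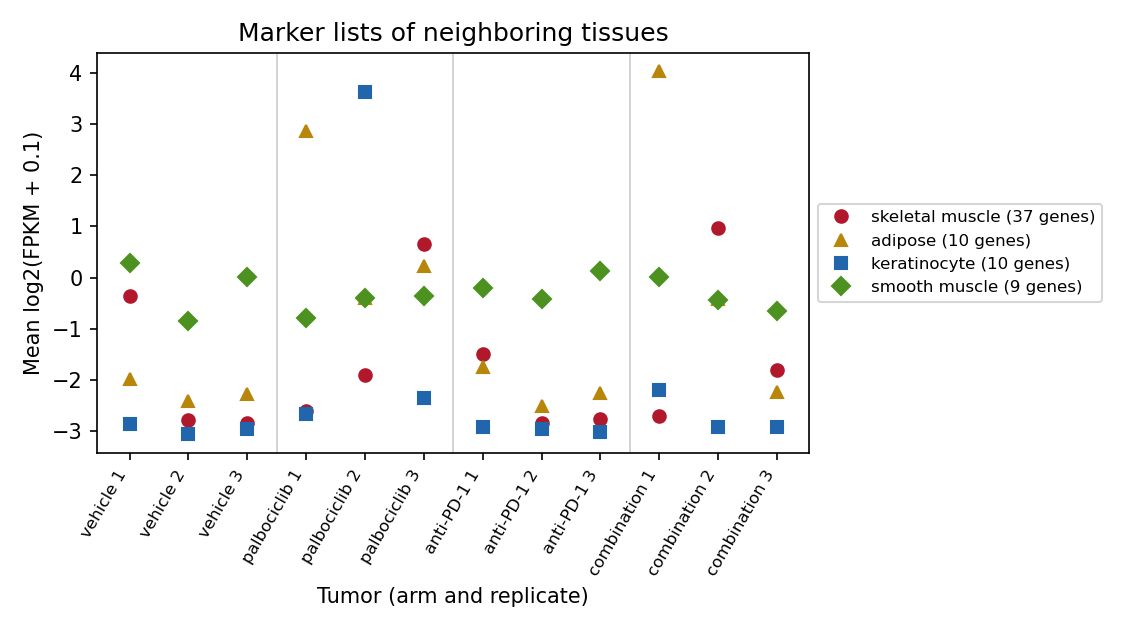
Mean log2(FPKM + 0.1) of marker lists for skeletal muscle (37 genes), fat, keratinocytes and smooth muscle in each tumor, with lines between arms. The keratinocyte list is high in palbociclib 2 (398.9 FPKM summed), the adipocyte list in palbociclib 1 and combination 1, and the skeletal muscle list in vehicle 1, palbociclib 3 and combination 2.

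Treatment arms were compared with limma on log2(FPKM + 0.1), with Benjamini-Hochberg adjustment over 15350 genes. Of the 40 genes, 30 reached the mean of 0.1 FPKM needed for testing. Myl2, Myl3, Tnni1, Casq2, Myh3, Myh8, Ttn, Pax7, Myod1 and Myog did not, and a low gene passes only through the tumors in which it is high. No muscle gene reached an adjusted p of 0.05 for palbociclib against vehicle (0 of 30), where 0.143% of all genes did. None did for anti-PD-1 against vehicle (0 of 30, background 0%) or for the combination against vehicle (0 of 30, background 0.013%). At an unadjusted p under 0.05 the muscle genes numbered 0, 1 and 1 of 30. In the same order, 2117, 1289 and 2602 of all 15350 genes were under 0.05 unadjusted. The 3 comparisons share the vehicle tumors. For the palbociclib effect, the mean of palbociclib minus vehicle and combination minus anti-PD-1, 0 of 30 passed, with a background of 0.313%. Unadjusted, 1 of the 30 was under 0.05, against 3154 of all 15350 genes. With all 40 genes in the fit, as any FPKM above 0 was admitted, 0 of 40 passed in each comparison. Of all 22912 genes in that fit, 33 passed for palbociclib, 1 for anti-PD-1 and 3 for the combination against vehicle, and 11 for the palbociclib effect.

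The differences were large on the log2 scale, and so were their standard errors. For Acta1 the palbociclib effect was 2.10 on the log2 scale with a standard error of 1.89 (limma adjusted p = 0.542), and for Ckm it was 1.36 with a standard error of 1.65 (adjusted p = 0.661). The smaller errors belonged to genes present in every tumor. For Myoz1 the effect was 1.38 with a standard error of 0.66 (adjusted p = 0.261), for Tnni2 1.63 with 0.86 (adjusted p = 0.305), and for Tnnt1 0.68 with 0.28 (adjusted p = 0.205). Tnnt1 read 0.201, 0.147 and 0.139 FPKM with vehicle, 0.279, 0.304 and 0.273 with palbociclib, 0.340, 0.156 and 0.198 with anti-PD-1 and 0.2999, 1.02 and 0.296 with the combination. The 3 values of each palbociclib-treated arm lay above the 3 vehicle values, but anti-PD-1 replicate 1 lay above 5 of the 6 palbociclib-treated tumors. By estimated fragments, Tnnt1 had 11, 8 and 10 with vehicle and 16, 16 and 16 with palbociclib. It had 23, 9 and 13 with anti-PD-1 and 17, 62 and 17 with the combination. Counts this low carry a large counting error. Tnnt1 is 1 of the genes tested, and how often other genes separate in this way was not counted. Tnnt1 was also the gene under 0.05 unadjusted for the combination against vehicle (1.11, standard error 0.39, adjusted p = 0.222), and Tnnc1 was that for anti-PD-1 (0.92, standard error 0.34, adjusted p = 0.580), where the value of 1.40 FPKM in anti-PD-1 replicate 1 stood apart from 0.533 and 0.686.

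Over the 30 genes tested the median difference was 0.66 for palbociclib, -0.74 for anti-PD-1 and 0.89 for the combination against vehicle, and 1.13 for the palbociclib effect, beside medians of 0.07, -0.03, 0.03 and 0.06 over all genes. Single tumors set the directions of the 3 comparisons against vehicle. Without palbociclib replicate 3 the first median was -0.42, without vehicle replicate 1 the second was 0.46, and without combination replicate 2 the third was -0.20. The palbociclib effect fell to 0.51 without palbociclib replicate 3 and to 0.52 without combination replicate 2. Its median kept its sign whichever tumor was left out, at 0.51 to 1.62. Whether the effect of palbociclib differed with and without anti-PD-1 was tested as an interaction. Of the 30 muscle genes, 0 passed and 0 were under 0.05 unadjusted. Of all 15350 genes, 0 passed and 879 were under 0.05 unadjusted. Because no gene passed, the count of passing genes cannot set the muscle genes apart.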

How the data were processed

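Bulk RNA of 12 LLC1-shLkb1 tumors, 3 per arm, was analysed from 1 table per tumor, and arms were taken from the labels. The values are FPKM computed by the authors. The submitters' processing notes name HISAT2 and GRCm38 (mm10), and the counting tool and the annotation are not given in the sources used here. Each table held 34745 entries, of which 67 repeat a symbol (none of them a muscle gene). The entry with the highest mean was kept, which left 34678 symbols. The 40 muscle genes and all other lists were chosen with earlier results of these data known.

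The test ran on log2(FPKM + 0.1) of the 15350 genes whose mean reached 0.1 FPKM, a scale that understates changes of low genes, by limma 3.58.1 in R 4.3.3 (1 mean per arm, eBayes with a trend, no covariates). Benjamini-Hochberg adjustment ran over all genes tested, with a threshold of 0.05. The fit was tested on simulated data. Summed levels, isoform shares, ratios and correlations are descriptions with no test.

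Fragments were recovered as whole multiples of the smallest step of low FPKM values (tolerance 0.06) for 33 of the 40 genes and from GENCODE M21 exon lengths for 7. Depth was taken from 3671 genes, and 41.0% of them gave the commonest value. Intervals are exact binomial (95%), and 3 fragments give the limit of a 0, both for counting error only. Promoters come from RefSeq (GRCm38.p6), and positions from GENCODE M21 on GRCm38. Any muscle gene could be named, with values per tumor for those the results turn on, beside genes of the other lists and the 10 non-members most like the summed level.

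Alternatives were pseudocounts of 1 and 0.01, other filters, TPM rescaling, quantile normalization, no trend, a replicate block and leaving out each tumor. Leaving out Atp2a2, Eno3 and Tpm2 was added after the data were seen. Python 3.11.15 with pandas 2.3.3, numpy 2.4.6, scipy 1.17.1 and matplotlib 3.10.9 was used.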

Additional observations from a re-analysis of the deposited data

How the results depend on the processing

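The count of muscle genes past the threshold was 0 in all 4 comparisons under every alternative run, including the replicate block and each left-out tumor. Calls were few in many of these runs over the whole table as well. For the palbociclib effect they ranged from 0 of 15350 genes without the trend to 772 of 15366 without anti-PD-1 replicate 1. The filter at a mean of 1 FPKM left 14 muscle genes to test. Leaving out each tumor in turn gave medians over the genes tested of -0.42 to 1.75 for palbociclib against vehicle, -1.19 to 0.46 for anti-PD-1, -0.20 to 1.86 for the combination and 0.51 to 1.62 for the palbociclib effect. The share of all FPKM taken by the 40 genes ranged from 0.0396% to 0.0573% with vehicle, 0.0444% to 0.0901% with palbociclib, 0.0410% to 0.0445% with anti-PD-1 and 0.0410% to 0.0861% with the combination. Without Atp2a2, Eno3 and Tpm2 it was 0.0115% with vehicle and 0.00341% with anti-PD-1. A pseudocount of 1 on each isoform lowered the fast myosin share to 80.1% in vehicle replicate 1, 54.5% in palbociclib replicate 2, 90.6% in palbociclib replicate 3, 56.6% in anti-PD-1 replicate 1, 87.8% in combination replicate 2 and 56.2% in combination replicate 3, as a constant added to low values must. Quantile normalization gave 99.8% in palbociclib replicate 3 and 95.4% in combination replicate 2. Leaving out a tumor cannot give another value for a share within 1 tumor. The other 186 recomputed values kept their call or stayed within the spread allowed for them. For the medians that spread was 2.21 on the log2 scale, wide enough to admit a change of sign. The median for palbociclib against vehicle, 0.66, became -0.42 without palbociclib replicate 3 and still lay within it. Medians with a tumor of an arm outside the comparison left out could hardly change.

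Replicate numbers follow the order of the samples within each arm, and the sample names give no pairing, so the numbers were not taken as pairs. Tumors of the same number in 2 arms correlated at -0.21 to 0.45, and 6 of 12 correlated best with their own number. These correlations are a description and did not decide the pairing. With a replicate block on these numbers 0 of 30 muscle genes passed. The medians were as without it, as they must be when each number occurs once in every arm. The whole table gave 51 in place of 22 calls for palbociclib against vehicle and 129 in place of 48 for the palbociclib effect. Without the trend the palbociclib effect had 0 calls in the whole table and palbociclib against vehicle 6, and quantile normalization left 1 call for palbociclib against vehicle. The cause was not tested. Depth limits the slow, developmental and regulator genes, several of which rest on under 10 fragments.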

Other observations

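Genes of the junction between nerve and muscle were low or similar in all tumors. The adult receptor subunit Chrne was above 0 in 2 tumors, palbociclib replicate 3 (0.0638 FPKM) and combination replicate 3 (0.0435 FPKM), and the fetal subunit Chrng did not exceed 0.0607 FPKM. Chrnb1 lay between 11.1 and 22.9 FPKM in all 12 tumors, highest in anti-PD-1 replicate 1. Of the ubiquitin ligases of muscle wasting, Trim63 reached 0.1697 FPKM in vehicle replicate 1, 0.208 in palbociclib replicate 3 and 0.483 in combination replicate 2 and was at 0 in 7 tumors, whereas Fbxo32 lay between 0.731 and 1.80 FPKM throughout. Cox8b, a cytochrome oxidase subunit of muscle and brown fat, read 9.83 FPKM in combination replicate 1 and 4.09 in palbociclib replicate 1, the tumors with the highest adipocyte genes, and 1.33 in palbociclib replicate 3.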
